A study of Mus musculus with 6 samples.

Results

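The EGF receptor family was described through 10 genes: the receptors Egfr, Erbb2 and Erbb3, the ligands Areg, Ereg, Hbegf, Tgfa, Btc and Epgn, and the feedback inhibitor Errfi1. They were chosen by name and matched to the deposited gene table by Entrez number, and all 10 were among its 15295 genes. RNA had been sequenced from 6 tumours of NA13, a mouse bladder cancer cell line. The labels call them xenografts and give C57BL/6 as the strain. In 3 tumours the cells carried a scrambled shRNA (control), and 3 were labelled shDdr2, an shRNA against the collagen receptor gene Ddr2. All 6 had been given IgG. Age, site of growth and immune state of the hosts, the number of shRNA clones and whether tumours came from separate animals are not stated in the labels. The p-values therefore speak only of the spread among these libraries, part of which may be technical. The comparison of the shRNAs asks how expression in the tumours differs when Ddr2 is targeted.

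Receptors of this family are tyrosine kinases of the cell surface that pair with each other once a ligand binds, and pass the signal on through RAS and ERK, PI3 kinase and STAT proteins. The ligands are made as membrane-bound precursors, and proteases of the ADAM family cut them free, so the transcript of a ligand is not the amount released. ERK signalling in turn raises transcription of several ligands and of Errfi1, whose protein binds the kinase domain and blocks it. In the bladder, EGFR is found mainly in basal urothelial cells, and basal-like bladder cancers are known for high EGFR and ligand expression.

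Ddr2 itself did not separate the groups. Controls 1 to 3 were at 6.42, 16.7 and 20.5 CPM, the count scaled to a common library total, and the libraries labelled shDdr2 1 to 3 at 4.84, 19.0 and 28.6 CPM. The log2 fold change was 0.27 (SE 0.66, exact permutation p = 0.9), and directions below are therefore between libraries as labelled. Library totals ran from 15560571 to 19522985 counts. The library labelled shDdr2 1 stood apart from the other 5. Its differentiated epidermis markers summed to 4960 CPM, against 1335 to 2305 CPM elsewhere, and 7 of these 10 genes were highest there. Its fibroblast markers summed to 1653 CPM, against 2761 to 11283 CPM. The basal epithelial markers, 7 of 7 present and led by Krt5 and Krt14, summed to 11325 to 14103 CPM over all 6 libraries. Of 11 luminal urothelial markers 8 were present, and Upk1a, Upk3a and Upk3b were not in the table. Skeletal muscle markers were at 8.20 to 82.2 CPM in controls and at 368 to 2813 CPM in libraries labelled shDdr2.

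Lower means in the libraries labelled shDdr2 were seen for 8 of the 10 genes, namely Egfr, Erbb3, Errfi1 and all ligands but Epgn. Of all tested genes 42.9% were lower. When single libraries were left out, the number of lower members ran from 7 to 9. None passed the edgeR test adjusted over all 14498 tested genes, where 0 genes (0%) were called, and DESeq2 called 0 of the 10 against 0.276% of all genes. At an unadjusted p under 0.05 there was 1 member, Hbegf, against a background of 1.44% of genes. Hbegf was also the only one of the 10 whose groups did not overlap, against 4.32% of genes in either direction and 2.11% with lower values in the libraries labelled shDdr2. The median log2 fold change was -0.34 over the 10 members and 0.04 over all tested genes. In these whole tumours, fewer cells of a type and less RNA per cell cannot be told apart.

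**Figure D1:**
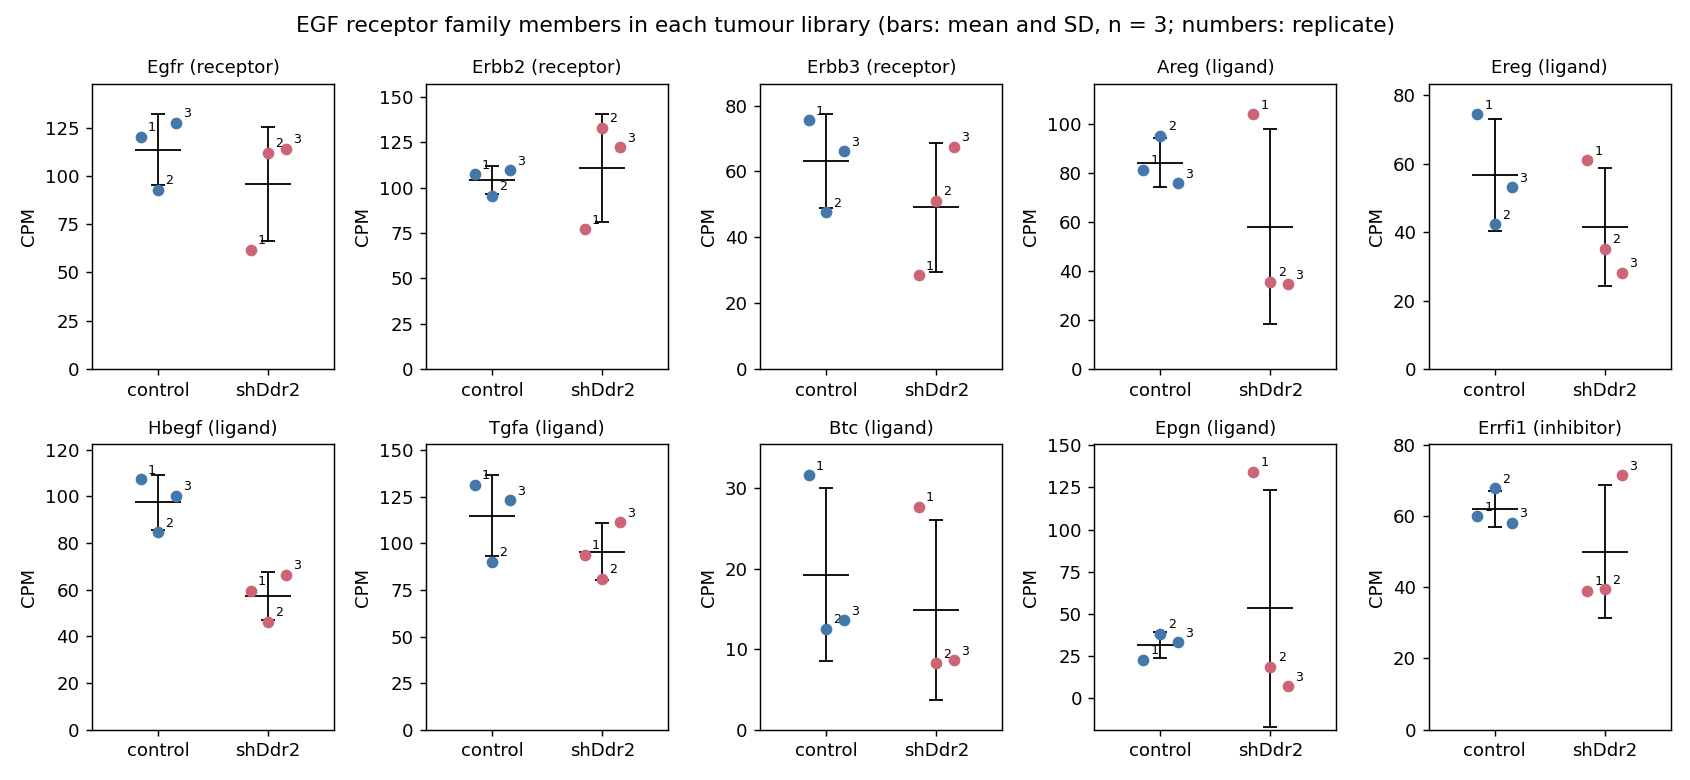
CPM of each of the 10 genes (y axis; linear scale) in the control libraries (blue) and the libraries labelled shDdr2 (red); each point is a library with its replicate number, and bars give mean and SD of 3 libraries. For Hbegf the groups do not overlap; for Areg the library labelled shDdr2 1 lies above every control while the other two labelled shDdr2 lie below; the lower SD bar of Epgn passes below 0 because its SD of 70.3 exceeds its mean of 53.4 CPM.

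Among the receptors no difference between the groups exceeded the spread, and the library labelled shDdr2 1 had the lowest value of all 3. Egfr, the receptor of EGF and of every ligand listed here (chromosome 11, 16752203 to 16918158, plus strand, GRCm38), was at 120.3, 92.7 and 128 CPM in controls 1 to 3, and at 61.8, 112 and 114 CPM in the libraries labelled shDdr2 1 to 3. A single library, labelled shDdr2 1, was low, and the others of both groups lay in one range. The group means were 114 ± 18.4 and 95.9 ± 29.6 CPM (SD, n = 3), with a log2 fold change of -0.24 (SE 0.28, 95% interval -0.91 to 0.42, exact permutation p = 0.5). Exact permutation tests here are two-sided, on log2 CPM, and enumerate the 20 ways to split 6 libraries evenly, so that 0.1 is the smallest p. Without the library labelled shDdr2 1 the log2 fold change was -0.01.

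Erbb2, the family's receptor without a known ligand of its own and the partner the others prefer (chromosome 11, 98412470 to 98437716, plus strand), was at 107, 95.5 and 109.6 CPM in controls 1 to 3, and at 77.0, 133 and 122 CPM in the libraries labelled shDdr2 1 to 3. The controls lay close together, with 1 library labelled shDdr2 below them and the other two above. The means were 104 ± 7.55 and 111 ± 29.7 CPM (SD, n = 3), and the log2 fold change was 0.09 (SE 0.24, 95% interval -0.48 to 0.66, exact permutation p = 1). It was 0.29 when the library labelled shDdr2 1 was left out and -0.06 when that labelled shDdr2 2 was, so the direction rests on single libraries. The adaptor gene Grb7, which lies near Erbb2 (98446394 to 98455373) and is often co-amplified with it in cancers, had a log2 fold change of -0.14. Erbb2 shares 9 bp of exon with Mien1 on the opposite strand.

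Erbb3, a receptor for neuregulins whose own kinase is weak and which signals through its partner (chromosome 10, 128567523 to 128589652, minus strand), was at 75.7, 47.6 and 66.1 CPM in controls 1 to 3 and at 28.5, 51.2 and 67.6 CPM in the libraries labelled shDdr2 1 to 3. Again the library labelled shDdr2 1 was lowest and the rest overlapped. The means were 63.1 ± 14.3 and 49.1 ± 19.6 CPM (SD, n = 3), with a log2 fold change of -0.36 (SE 0.34, 95% interval -1.17 to 0.44, exact permutation p = 0.5), and -0.09 without that library. The luminal urothelial markers summed to 360.4 CPM in the library labelled shDdr2 1 and to 601 to 919 CPM in the others. Of the 8 present, 6 were lowest in that library. So were 7 of 9 fibroblast and 6 of 6 endothelial markers, beside 34.6% of all tested genes. The part of these markers in the receptor values was not tested.

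Hbegf, which encodes heparin-binding EGF-like growth factor, a ligand of EGFR and ERBB4 made by epithelia, smooth muscle and macrophages, gave the clearest separation of the 10 genes. It was at 107, 84.5 and 100.3 CPM in controls 1 to 3 and at 59.5, 46.2 and 66.5 CPM in the libraries labelled shDdr2 1 to 3. Every control was above every library labelled shDdr2. The means were 97.4 ± 11.7 and 57.4 ± 10.3 CPM (SD, n = 3). The fitted level was 1.70-fold higher in controls, a log2 fold change of -0.76 (SE 0.22, 95% interval -1.27 to -0.26).

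The unadjusted edgeR p of Hbegf was 0.00843 and the adjusted p 1.00. An exact two-sided permutation test of its log2 CPM gave p = 0.1, the smallest that 3 against 3 libraries allow. The labels give no meaning for the replicate numbers. Deviations from the group means correlated between same-numbered libraries (r = 0.253 to 0.299). They did so too between control 3 and the library labelled shDdr2 2 (r = 0.254). Between same-numbered libraries the differences in log2 CPM of Hbegf were -0.85, -0.87 and -0.59. Ereg (-0.29, -0.27 and -0.91), Tgfa (-0.48, -0.16 and -0.15) and Btc (-0.19, -0.61 and -0.65) were also lower in all 3 pairs. That makes 4 of the 10 members, against 8.13% of all tested genes. For Hbegf this follows from the groups not overlapping, and its pairs add nothing to that. When single libraries were left out the log2 fold change stayed between -0.88 and -0.63, and over the 16 alternative settings the lowest adjusted p was 0.425, from DESeq2. The neutrophil marker sum also did not overlap, at 67.4 to 90.5 CPM in controls and 29.5 to 64.9 CPM in libraries labelled shDdr2. Of its 5 genes, all present, only S100a8 and S100a9 separated the groups, while Cxcr2, Csf3r and Retnlg overlapped. Of the 8 luminal urothelial markers present, 3 were lower without overlap. Over all tested genes, 2.11% were lower without overlap and 4.32% separated the groups in either direction. Macrophage markers, 7 of 7 present, overlapped, with sums of 239 to 609 and 236 to 548 CPM. Skeletal muscle markers, 8 of 8 present, separated the groups in the other direction, as given above. The part of these markers in the Hbegf difference was not tested. The gene lies on chromosome 18 (36504927 to 36515805, minus strand).

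Tgfa, which encodes transforming growth factor alpha, a ligand that binds EGFR alone (chromosome 6, 86195223 to 86275719, plus strand), varied least of the 6 ligands. It was at 131, 90.3 and 123.2 CPM in controls 1 to 3 and at 93.9, 81.0 and 111 CPM in the libraries labelled shDdr2 1 to 3. The groups overlapped, with control 2 below 2 of the libraries labelled shDdr2. The means were 115 ± 21.8 and 95.5 ± 15.3 CPM (SD, n = 3), with a log2 fold change of -0.27 (SE 0.23, 95% interval -0.80 to 0.26, exact permutation p = 0.3). A predicted gene on the opposite strand, Gm43917, shares 118 bp of its exons. The ratio of Hbegf to Tgfa CPM within a library was 0.817, 0.936 and 0.814 in controls 1 to 3, against 0.633, 0.570 and 0.597 under the label shDdr2. The ratios of the groups did not overlap.

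The other 4 ligands are neighbours. Epgn, Ereg and Areg on the plus strand and Btc on the minus strand lie in that order on chromosome 5 between 91027464 and 91402994, a span of 375.5 kb whose protein-coding genes in GENCODE M21 are these 4 alone. The gaps are 39406 bp from Epgn to Ereg, 45952 bp from Ereg to Areg and 208828 bp from Areg to Btc.

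Stretches of 120 bases just before the RefSeq start (GRCm38.p6, written 5′ to 3′ on the gene's strand) are shown for Areg and Btc, cluster members that share their lowest pair of libraries and have the highest and lowest levels per length, and for Errfi1 at the second of its listed starts, which holds the same motifs as Areg in a gene with another profile. Capitals mark matches to the motifs searched. They are at chr5:91139479-91139598 (plus), chr5:91402995-91403114 (minus) and chr4:150854950-150855069 (plus).
Areg: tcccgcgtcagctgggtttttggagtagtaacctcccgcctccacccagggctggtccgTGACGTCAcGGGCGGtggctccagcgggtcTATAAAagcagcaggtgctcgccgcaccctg
Btc: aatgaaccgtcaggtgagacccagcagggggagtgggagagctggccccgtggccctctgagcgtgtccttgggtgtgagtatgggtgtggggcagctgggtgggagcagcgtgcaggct
Errfi1: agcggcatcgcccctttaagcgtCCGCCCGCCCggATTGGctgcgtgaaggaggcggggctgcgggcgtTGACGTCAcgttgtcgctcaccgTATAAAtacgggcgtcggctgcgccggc

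The motifs were searched on both strands in the 250 bases before each start, for 7 of the members. Ereg, Erbb3 and Hbegf were not searched. The full cAMP response element TGACGTCA, a site bound by CREB and ATF proteins, was found before Areg, 61 bases from the start, and before Errfi1, 51 bases from the start, and is held by 1.55% of 32851 promoters. Both also hold a TATA box (TATAAA), at 31 and 28 bases, against 12.4% of promoters. The GC box GGGCGG was at 52 bases in Areg, and in Errfi1 its nearest copies, on the opposite strand and overlapping, were at 97 and 93 bases (32.7% of promoters). The box CCAAT was matched in Errfi1 on the opposite strand at 85 bases (33.8% of promoters), and the AP-1 site TGANTCA, held by 6.75% of promoters, in none of the 7. The stretch of Btc held none of these letters. A match describes the letters only.

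Areg, which encodes amphiregulin, an EGFR ligand abundant in squamous and basal epithelia (91139599 to 91148432), was at 81.3, 95.1 and 75.7 CPM in controls 1 to 3. In the libraries labelled shDdr2 1 to 3 it was at 104, 35.6 and 34.4 CPM. The library labelled shDdr2 1 had the highest level of all 6, and the other two labelled shDdr2 were at less than any control. The means were 84.0 ± 9.94 and 58.0 ± 39.7 CPM (SD, n = 3), with a log2 fold change of -0.54 (SE 0.44, 95% interval -1.57 to 0.50, exact permutation p = 0.4). It was -1.26 when the library labelled shDdr2 1 was left out and -0.27 when that labelled shDdr2 3 was.

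Ereg, which encodes epiregulin, a ligand of EGFR and ERBB4 (91074622 to 91093646), was at 74.5, 42.3 and 53.1 CPM in controls 1 to 3 and at 61.1, 35.1 and 28.2 CPM in the libraries labelled shDdr2 1 to 3. Control 1 and the library labelled shDdr2 1 were the highest, and those labelled shDdr2 2 and 3 the lowest. The means were 56.6 ± 16.4 and 41.5 ± 17.3 CPM (SD, n = 3), with a log2 fold change of -0.45 (SE 0.35, 95% interval -1.27 to 0.37, exact permutation p = 0.3). Leaving out control 1 gave -0.18, and leaving out the library labelled shDdr2 1 gave -0.84. An antisense gene, Gm19610, shares 141 bp with its exons, and whether strand was used in counting is not stated.

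Epgn, which encodes epigen, a ligand of EGFR with low affinity (91027464 to 91035215), spread widest of the 10, with an 18.4-fold range. It was at 23.0, 38.4 and 33.3 CPM in controls 1 to 3 and at 134, 18.7 and 7.29 CPM in the libraries labelled shDdr2 1 to 3, the last from 127 counts (exact 95% Poisson interval 106 to 151, counting error only). The libraries labelled shDdr2 held both the highest and the lowest values, with all controls between. The log2 fold change of 0.76 (SE 0.93, 95% interval -1.42 to 2.94, exact permutation p = 0.9) has no stable sign: it was -1.27 with the library labelled shDdr2 1 left out, 1.27 with that labelled shDdr2 3 left out and -0.36 with the replicate number as a block. The differentiated epidermis list, 10 of 10 present, was on average 1.31 log2 units above the 6-library mean in the library labelled shDdr2 1, against 2.23 for Epgn. Krt1, Krt10, Lor, Sprr1b, Krtdap, Sbsn and Dsg1a were highest in that library, Ivl and Sprr1a were highest in control 1, and Flg was lowest in that library. Their part in the Epgn value was not tested.

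Btc, which encodes betacellulin, a ligand of EGFR and ERBB4 (91357261 to 91402994), had the fewest counts per length. It was at 31.7, 12.5 and 13.6 CPM in controls 1 to 3 and at 27.7, 8.23 and 8.67 CPM in the libraries labelled shDdr2 1 to 3. In each group the library numbered 1 was high and the other two low. The means were 19.3 ± 10.7 and 14.9 ± 11.1 CPM (SD, n = 3), with a log2 fold change of -0.38 (SE 0.58, 95% interval -1.74 to 0.99, exact permutation p = 0.5). Leaving out control 1 gave 0.21, and leaving out the library labelled shDdr2 1 gave -1.19.

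The 4 clustered ligands had 1 order in common that the other members lacked. In 4 of 4 the lowest pair of values came from the libraries labelled shDdr2 2 and 3, as in 11.3% of all tested genes, against 0 of the other 6 members. The lowest value of 4 of those 6 (Egfr, Erbb2, Erbb3 and Errfi1) came from the library labelled shDdr2 1, as in 34.6% of all genes. Both counts were set up after the values had been seen. Of the tested protein-coding neighbours outside the cluster, Mthfd2l (6.15 kb away) and Rchy1 (546 kb away) had the same lowest pair, with log2 fold changes of -0.29 and -0.08. Parm1, 114.7 kb away, and Thap6 did not, nor did the chemokine genes Cxcl2 and Cxcl1, 121.6 and 134.4 kb away, whose log2 fold changes were -1.94 and -1.18.

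Leaving out the library labelled shDdr2 1, all 6 ligands had lower means in the libraries labelled shDdr2 and 5 had an unadjusted edgeR p under 0.05, against 6.95% of 14696 genes. Of all genes in that fit, 50.8% were lower. Areg was at -1.26 (SE 0.17) with an unadjusted edgeR p of 6.37e-05 and an adjusted p of 0.234, from a mean of 84.0 CPM in controls to 35.03 CPM. Epgn was at -1.27 (SE 0.43), Btc at -1.19 (SE 0.43), Ereg at -0.84 (SE 0.26), Hbegf at -0.79 (SE 0.20) and Tgfa at -0.26 (SE 0.22), with 0 calls after adjustment. In that fit the group labelled shDdr2 is 2 libraries. For Areg, Ereg, Epgn and Btc these 2 were the lowest pair of all 6, and the groups of Hbegf did not overlap. The count of 5 is therefore not separate from the order given above. With all 6 libraries the median ligand was at -0.41, and without the library labelled shDdr2 1 at -1.01. Leaving out control 1, 2 or 3 instead gave medians of -0.17, -0.53 and -0.54. Leaving out the library labelled shDdr2 2 or 3 gave -0.22 and -0.25. In each of those other fits 1 ligand had an unadjusted edgeR p under 0.05. Fibroblast markers, 9 of 9 present, summed to 4300.4 and 11283 CPM in the libraries labelled shDdr2 2 and 3 and to 2761 to 5969 CPM in controls, and their part in the ligand values was not tested.

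**Figure D2:**
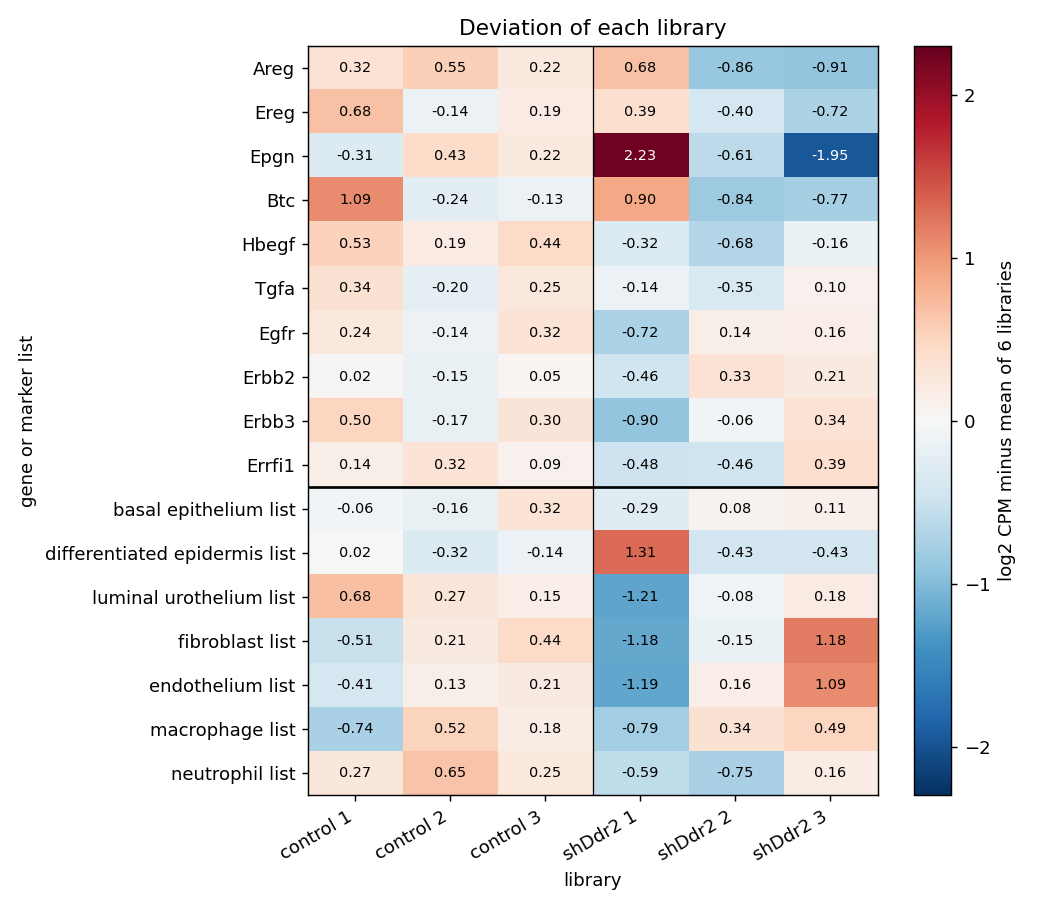
Log2 CPM of each library minus the mean over the 6 libraries (colour and printed value; red above, blue below) for the 10 genes (upper rows) and the means of 7 cell type marker lists (lower rows), with libraries in columns. Areg, Ereg, Epgn and Btc are lowest in the libraries labelled shDdr2 2 and 3, from -0.40 to -1.95, and Egfr, Erbb2, Erbb3 and Errfi1 are lowest in the library labelled shDdr2 1, from -0.46 to -0.90.

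Errfi1, the feedback inhibitor also known as Mig6 (chromosome 4, 150853919 to 150868892, plus strand), was at 60.0, 67.8 and 58.1 CPM in controls 1 to 3. It was at 39.0, 39.5 and 71.6 CPM in the libraries labelled shDdr2 1 to 3. That labelled shDdr2 3 was the highest of all 6, and the other two were below every control. The means were 62.0 ± 5.12 and 50.01 ± 18.7 CPM (SD, n = 3), with a log2 fold change of -0.31 (SE 0.28, 95% interval -0.97 to 0.35, exact permutation p = 0.4). It was -0.66 when the library labelled shDdr2 3 was left out and -0.16 when that labelled shDdr2 1 was. Its ratio to Egfr ran from 0.456 to 0.731 in controls and from 0.352 to 0.631 in the others, with overlap.

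Per kilobase of exon, Areg led the 10 genes with 58.4 ± 24.3 CPM per kb over the 6 libraries (SD, n = 6). Epgn followed with 23.5 ± 25.6, a place that rests on 1 library, since in the controls alone it was at 17.5 ± 4.35 (SD, n = 3), below Hbegf, Erbb2 and Tgfa. Erbb2 was the most abundant receptor, at 20.6 ± 3.78 CPM per kb, with Erbb3 at 9.33 ± 2.85 and Egfr at 9.25 ± 2.12. Tgfa, Hbegf and Errfi1 were at 16.2 ± 3.07, 16.01 ± 4.98 and 15.6 ± 3.88 CPM per kb, and Ereg at 11.9 ± 4.17. Btc was lowest with 3.78 ± 2.23. From Tgfa to Egfr, neighbours in this order differed by less than the SD of either, while Erbb2 exceeded Tgfa by more than either SD. With the length of the longest transcript in place of all exons, Hbegf rose in the order to the second place with 26.8 CPM per kb, while Areg stayed first and Btc last. On that length Tgfa, at 23.2 CPM per kb, was above Erbb2, at 21.4, so their order depends on the length used.

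The make-up of the ligand pool differed between libraries more than that of the receptors. Summed over the 6 ligands, the level per kb was 147, 144 and 136 in controls 1 to 3. It was 208, 72.0 and 72.0 in the libraries labelled shDdr2 1 to 3, that is, above the controls once and below them in the other two. Areg made up 45.5, 54.4 and 45.7% of this sum in controls and 41.2, 40.7 and 39.3% in the libraries labelled shDdr2, without overlap, while the shares of the other 5 ligands overlapped. Epgn made up 35.8% in the library labelled shDdr2 1 and 5.60 to 14.8% in the other 5. The receptor sum was 43.8, 34.4 and 43.3 in controls, against 24.99, 43.9 and 44.75 under the label shDdr2. Erbb2 relative to Egfr, in CPM, was 0.892, 1.03 and 0.860 in controls, against 1.25, 1.19 and 1.07 under the label shDdr2, again without overlap. Of 5 such ratios computed, those of Erbb2 to Egfr and of Hbegf to Tgfa separated the groups, and the other 3 overlapped. Of 9 shares, 2 separated the groups, that of Areg and that of Egfr among the receptors. These shares and ratios were not tested, and they are not independent, since several use the same genes. With 3 against 3 libraries, a quantity unrelated to the groups separates them with probability 0.1.

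**Figure D3:**
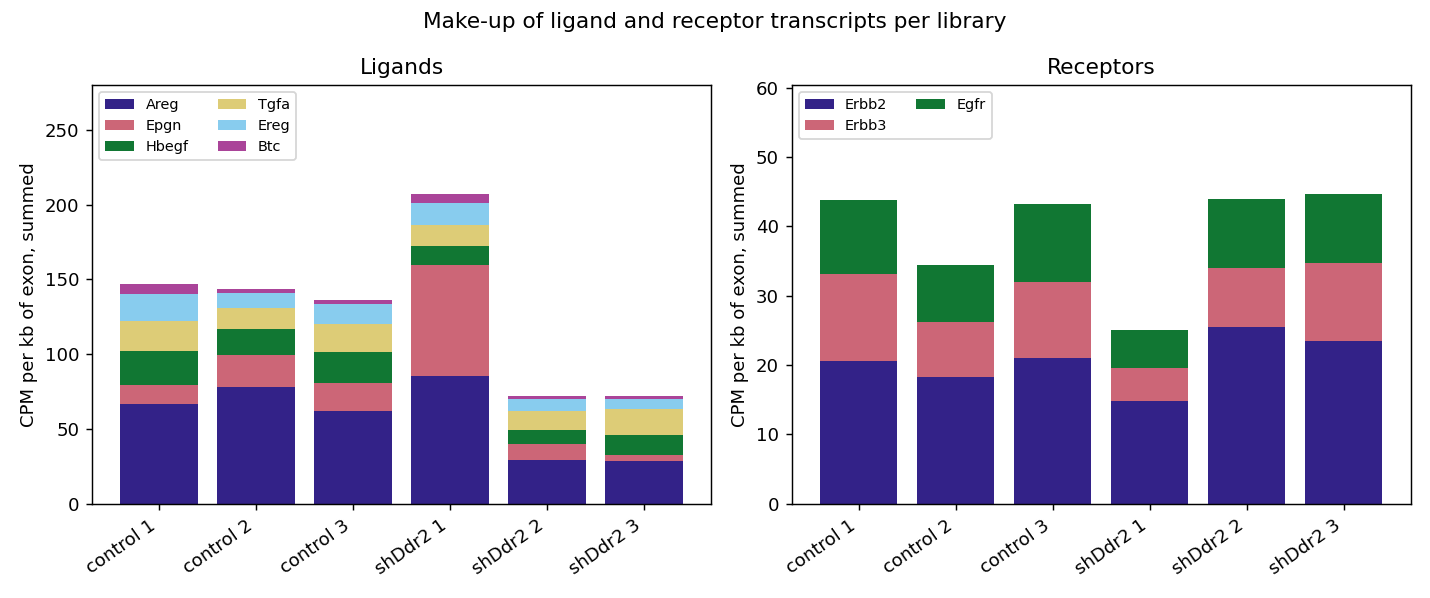
Stacked bars of CPM per kb of exon for the 6 ligands (left) and 3 receptors (right), one bar per library. The ligand sum is 208 in the library labelled shDdr2 1 and 72.0 in those labelled shDdr2 2 and 3, against 136 to 147 in controls; the receptor sum is lowest, at 24.99, in the library labelled shDdr2 1.

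Other genes of the pathway gave 0 edgeR calls and 0 DESeq2 calls in every list. Transcriptional outputs of ERK signalling were lower in the libraries labelled shDdr2 in 11 of 15 tested genes, beside 42.9% of all tested genes, with a median log2 fold change of -0.16 beside 0.04. The groups did not overlap in 4 of the 15, Phlda1, Epha2, Spry2 and Fosl1, all lower in the libraries labelled shDdr2, as in 2.11% of all genes. Phlda1, a gene induced early by growth factors, was at 135, 114 and 132 CPM in controls 1 to 3 and 105.6, 73.4 and 91.2 CPM in the libraries labelled shDdr2 1 to 3. Its log2 fold change was -0.50 (SE 0.21), with an unadjusted edgeR p of 0.0460 and an adjusted p of 1.00. Epha2, an ephrin receptor induced through ERK, had means of 206 ± 23.5 and 144 ± 42.6 CPM (SD, n = 3), with a log2 fold change of -0.52 (SE 0.27). Dusp6, an ERK phosphatase widely used as a readout of the pathway, overlapped between the groups, at 152 to 268 CPM and 137 to 279 CPM. The count of lower genes was 8 of 15 without control 3, and 8 of 15 without the library labelled shDdr2 1. Of all genes 42.5% and 50.8% were lower in these fits.

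Among the family's other ligands and receptors, Erbb4 and Nrg3 were not in the table, which holds no gene with a count of 0 in any library. Of the remaining 4, 2 were lower and 2 higher. Egf was near the lower limit, at 0.895 ± 0.370 and 1.30 ± 0.479 CPM, and Nrg1, a ligand of ERBB3 and ERBB4, was at 29.0 ± 12.9 and 21.9 ± 6.33 CPM (SD, n = 3), giving a log2 fold change of -0.40 (SE 0.37). Of 9 genes of ligand shedding 4 were lower and 5 higher, but 7 were lower and 2 higher with limma voom, with limma on the deposited log2 values and with the replicate block. Of all tested genes 42.9% were lower in the main fit and 48.7 to 49.9% in those alternatives. Adam8, a metalloprotease and the gene with the smallest p in the shedding list, was at 192 ± 75.1 and 113 ± 43.4 CPM (log2 fold change -0.76, SE 0.37). Adam17, the main sheddase of several ligands of the family, was at 109.2 ± 14.7 and 119 ± 21.9 CPM, and Rhbdf2, which escorts it to the cell surface, had a log2 fold change of -0.33.

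Of 12 genes listed for receptor turnover, whose roles differ, 5 were lower and 7 higher. The median log2 fold change was 0.04, and the same 3 alternatives gave 7 lower and 5 higher. Lrig1, a membrane protein that lowers receptor levels, was at 44.9 ± 17.6 and 31.03 ± 2.59 CPM (SD, n = 3; log2 fold change -0.53, SE 0.32), and the ubiquitin ligase gene Cblc had a log2 fold change of -0.21. The 21 signal relay genes ran from the adaptors to ERK and included Plcg1, Pik3ca, Pik3r1 and Stat3. Of these 21, 14 were lower and 7 higher, with a median of -0.05 and with all values between -0.29 and 0.28. Without control 1, and likewise without the library labelled shDdr2 1, 10 were lower and 11 higher. Ptpn11, the phosphatase SHP2, was at 194 ± 21.6 and 159 ± 28.1 CPM, and Map2k1, an ERK kinase, at 111 ± 4.20 and 96.4 ± 13.3 CPM.

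**Figure D4:**
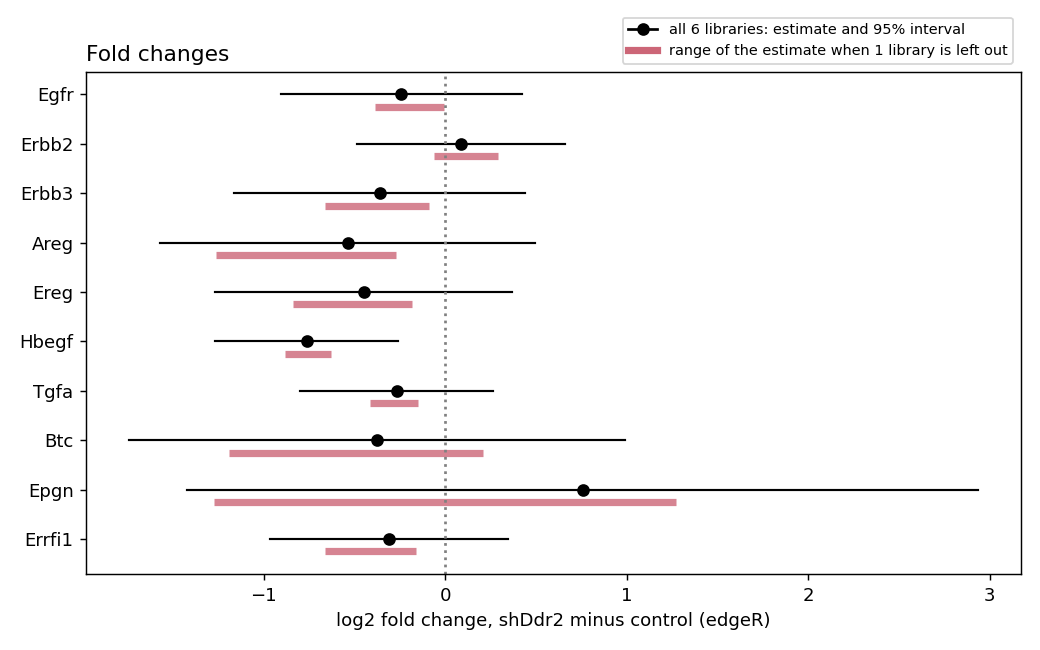
Log2 fold change of each of the 10 genes in the libraries labelled shDdr2 minus control (x axis; edgeR) with its 95% interval over the 6 libraries (black) and the range of the estimate when single libraries are left out (red). Only the interval of Hbegf, -1.27 to -0.26, lies on one side of 0 (unadjusted), and the leave-one-out range of Epgn spans -1.27 to 1.27.

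The genes with profiles most like the leading receptor and ligand were sought among 13014 genes, by the root mean square difference of centred log2 CPM over the 6 libraries. For Erbb2, with a range of 0.79 log2 units, these were Uba1 (difference 0.033), Arntl (0.039) and Slc39a9 (0.046). All 3 were lowest in the library labelled shDdr2 1 and highest in that labelled shDdr2 2. For Areg, with a range of 1.59, they were Fancf (0.17), Ccdc122 (0.21) and Sec11c (0.23), each with its lowest pair in the libraries labelled shDdr2 2 and 3. None of the other ligands was among these 3 genes. The shared orders follow from choosing genes by likeness over the same 6 libraries.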

How the data were processed

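Bulk poly-A RNA sequencing was available for 6 tumour libraries, 3 per group, by the sample titles. The authors deposited counts per Entrez gene, and log2 values, which a check showed to be log2(count / library factor + 1). Per the submitters' processing notes, Bowtie2 2.1.0, RSEM 1.2.31 and limma were used with GRCm38.p5. The annotation, the gene filter and the strand setting were not given in the sources used here. The lowest count is 1, and the 17 highest values carry 3 significant digits. Of the Entrez numbers, 14876 matched a RefSeq symbol (GRCm38.p6) and 419 did not. Coordinates and exon lengths are from GENCODE M21 on GRCm38, and promoter stretches from RefSeq.

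Counts were used as deposited. Genes were filtered with filterByExpr (minimum count 10), scaled by TMM (factors 0.867 to 1.05) and tested with the robust quasi-likelihood F test of edgeR 4.0.16 in R 4.3.3, with Benjamini-Hochberg adjustment over 14498 genes and a threshold of 0.05. The common biological coefficient of variation was 35.3%, and the 95% interval reached 0.76 log2 units either way in the median gene. Alternatives used DESeq2 1.42.0, limma 3.58.1, other scalings and filters, a replicate block and leaving out libraries. Leaving out control 1 and the library labelled shDdr2 1 together was added after the data had been seen.

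Members and lists were chosen with earlier results of these data known. The genes named are the 10 members, Ddr2, the 2 genes per list ranked first by p, and the 3 genes most like the most abundant receptor and ligand. Grb7, the cluster's neighbours, Spry2, Fosl1, Dusp6 and Adam17 were named after their values had been seen. Deviations from the group means correlated between same-numbered libraries (r = 0.299, 0.267 and 0.253 for numbers 1 to 3), all above the criterion of 0.1. The labels give no meaning for a number, and r was 0.254 between control 3 and the library labelled shDdr2 2. Replicates differed by more than counting noise (chi-square per degree of freedom 26.3 to 244).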

Additional observations from a re-analysis of the deposited data

How the results depend on the processing

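Each log2 fold change was recomputed under 16 alternatives. Areg, Ereg, Hbegf, Tgfa and Errfi1 stayed lower in the libraries labelled shDdr2 in all of them, and no member passed an adjusted p of 0.05. DESeq2 called 40 genes, 34 higher and 6 lower, none of them a member, where edgeR called 0, and edgeR called 0 without any single library and with the replicate block. Without control 1 and the library labelled shDdr2 1 together, Egfr was at 0.028, Erbb3 at 0.054 and Epgn at -1.47. Epgn was at -0.30 with limma voom, -0.23 with limma on the deposited log2 values and -0.36 with the replicate block. The block changed no other member's direction. Leaving out single libraries gave -0.064 to 0.29 for Erbb2, -1.19 to 0.21 for Btc, -1.27 to 1.27 for Epgn and -0.28 to 0.71 for Ddr2. The cause of these shifts was not tested. The number of genes at an unadjusted p under 0.05 was 209, but 1022 when the library labelled shDdr2 1 was left out and 395 when that labelled shDdr2 3 was, with lowest adjusted p-values of 0.0908 and 0.0849. On the length of the longest transcript, Hbegf and Tgfa were at 26.8 and 23.2 CPM per kb. With 3 libraries a group, the intervals given bound what can be said of a single gene. The split of lower and higher genes in the lists of shedding, receptor turnover and signal relay turned under some alternatives. The share of lower genes among all tested genes itself ran from 41.3 to 50.8% over the settings.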
